A study of Drosophila melanogaster with 3 samples.

Results

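Aminoacyl-tRNA synthetase genes were taken as the protein-coding genes off chromosome 4 whose symbol ends in a capital letter, 2 small letters and RS, with -m added for the mitochondrial enzymes. The rule found 35 of 13865 protein-coding genes, 20 of them for cytosolic and 15 for mitochondrial enzymes, and it used no measured value. The peaks came from chromatin immunoprecipitation and sequencing (ChIP-seq) of 3 biological replicates of whole Drosophila melanogaster larvae, males and females pooled, from a transgenic line that stably carries the zinc finger protein Noc fused to GFP at its C terminus. All 3 replicates form 1 group, the precipitation was through GFP, and the labels give an age of 48 days, which is long for a larva. Whole larvae mix all cell types, so which cells gave a peak was not measured, and no library from untagged larvae was analysed here. A summit, the highest point of a peak, is therefore not by itself proof of Noc binding. With 1 group and no contrast between samples, no test between conditions could be made, and all differences below are given as counts and shares, with the spread over replicates where it was computed.

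Aminoacyl-tRNA synthetases join each amino acid to its matching tRNA, the step at which the genetic code is read into protein. Nuclear genes encode both a cytosolic set and a set imported into mitochondria, and both sets fall into class I and class II by the fold of the catalytic domain. In animal cells several cytosolic synthetases are held together with scaffold proteins in a multi-synthetase complex, and uncharged tRNA is sensed by the kinase Gcn2, which acts through the bZIP factor ATF4, called crc in flies. Synthetase genes are used in every growing cell and are usually counted as housekeeping genes.

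The sequences at the summits are shown for 8 synthetase genes as examples of summits in the short stretch between a synthetase gene and its neighbour, outside annotated exons. Other genes with such a summit are described without their sequence. Each line holds 50 bases to either side of the gene's strongest summit in the authors' IDR list, read 5′ to 3′ on the gene's strand, from the RefSeq copy of dm6. The IDR list holds the peaks that the authors kept by irreproducible discovery rate, which scores how well ranks match between replicates. At each synthetase gene with an IDR summit, its rank was the same in the pooled list, made from all 3 libraries. An IDR summit thus does not by itself show that every replicate had the peak. Capitals mark the TATA word TATAAA, the GATA word (AGATAA or TGATAA) and the homeodomain word TAATTA on either strand.
GluProRS, chr3R:23958482-23958582, minus strand: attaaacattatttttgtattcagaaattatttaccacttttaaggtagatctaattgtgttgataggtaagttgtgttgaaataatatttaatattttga
AsnRS, chr2L:19132007-19132107, minus strand: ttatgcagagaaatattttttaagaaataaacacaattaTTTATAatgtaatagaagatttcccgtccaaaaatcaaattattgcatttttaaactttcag
ArgRS, chrX:15844263-15844363, minus strand: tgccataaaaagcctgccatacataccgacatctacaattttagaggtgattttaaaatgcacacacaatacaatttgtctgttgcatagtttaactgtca
ThrRS, chr2L:12103561-12103661, plus strand: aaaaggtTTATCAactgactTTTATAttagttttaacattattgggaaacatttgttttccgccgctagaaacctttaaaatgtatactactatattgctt
GlyRS, chr3L:15094908-15095008, plus strand: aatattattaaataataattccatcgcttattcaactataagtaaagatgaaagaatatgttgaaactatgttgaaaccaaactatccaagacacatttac
ArgRS-m, chr3R:7886921-7887021, plus strand: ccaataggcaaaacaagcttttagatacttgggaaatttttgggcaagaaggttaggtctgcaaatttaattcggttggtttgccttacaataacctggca
alpha-PheRS, chrX:8145649-8145749, minus strand: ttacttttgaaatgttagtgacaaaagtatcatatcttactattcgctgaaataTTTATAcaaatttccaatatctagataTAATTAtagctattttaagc
GlnRS, chr3R:25265726-25265826, minus strand: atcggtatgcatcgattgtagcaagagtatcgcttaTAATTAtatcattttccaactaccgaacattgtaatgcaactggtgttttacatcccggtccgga
The windows of AsnRS, ThrRS and alpha-PheRS held the TATA word, that of ThrRS also the GATA word, and those of alpha-PheRS and GlnRS the homeodomain word. Those of GluProRS, ArgRS, GlyRS and ArgRS-m held none of the 7 words searched.

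Cytosolic synthetase genes carried promoter summits more often than mitochondrial ones. Within 500 bp of a transcription start site (TSS), 13 of the 35 genes (37.1%, Wilson 95% interval 23.2% to 53.7%) had an IDR summit, against 24.6% of all protein-coding genes off chromosome 4. The interval of the whole set holds that background, so the set as a whole is not distinguished from it. Of the cytosolic genes, 11 of 20 did (55%, 34.2% to 74.2%), and of the mitochondrial genes 2 of 15 (13.3%, 3.74% to 37.9%). The lower bound of the cytosolic interval lies above 24.6%, a background that is not matched for the arrangement of neighbouring genes, and the mitochondrial interval holds it. The difference between both sets was not tested, and the intervals cover counting error over genes only. With 1 replicate left out, only IDR summits matched within 100 bp in both others were kept. The 13 genes became 5 without replicate 1 (14.8% of all protein-coding genes), 8 without replicate 2 (18.7%) and 10 without replicate 3 (16.3%). The cytosolic 11 became 4 without replicate 1 (20%, 8.07% to 41.6%), 6 without replicate 2 (30%, 14.5% to 51.9%) and 9 without replicate 3 (45%, 25.8% to 65.8%). Without replicate 1 or replicate 2 the cytosolic interval thus holds the background of its own setting. A gene lost by this rule need not lack a promoter summit in the replicates kept. AspRS, GluProRS and GlyRS were lost without replicate 1. Their promoter summits in replicates 2 and 3 ranked 932 and 1241, 1359 and 2643, and 2563 and 4439. CysRS-m, GlnRS, MetRS, ThrRS and alpha-PheRS were lost too. In replicate 2 or 3 these had no promoter summit or one ranked beyond the length of the IDR list.

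The same order appeared in the replicates. Each replicate list was shortened to the 7201 peaks of highest signal, the length of the IDR list. Of the cytosolic genes 13, 10 and 8 then had a promoter summit in replicates 1, 2 and 3 (51.7% ± 12.6, SD, n = 3), and of the mitochondrial genes 3, 1 and 2 (13.3% ± 6.67). The lowest cytosolic share, 40% in replicate 3, was above the highest mitochondrial share, 20% in replicate 1. The shares of all protein-coding genes were 25.5%, 23.4% and 24.7% in those shortened lists, below each cytosolic share and above each mitochondrial one. In the full lists of 30000 peaks all protein-coding genes stood at 48.7%, 43.1% and 48.6%. There the cytosolic genes stood at 80%, 60% and 70% and the mitochondrial genes at 53.3%, 26.7% and 46.7%, so in the full list of replicate 1 the mitochondrial share was above the background. Over all 35 genes the counts in the shortened lists were 16, 11 and 10. The 3 replicate lists also feed the IDR list, so they are not independent of it.

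**Figure D1:**
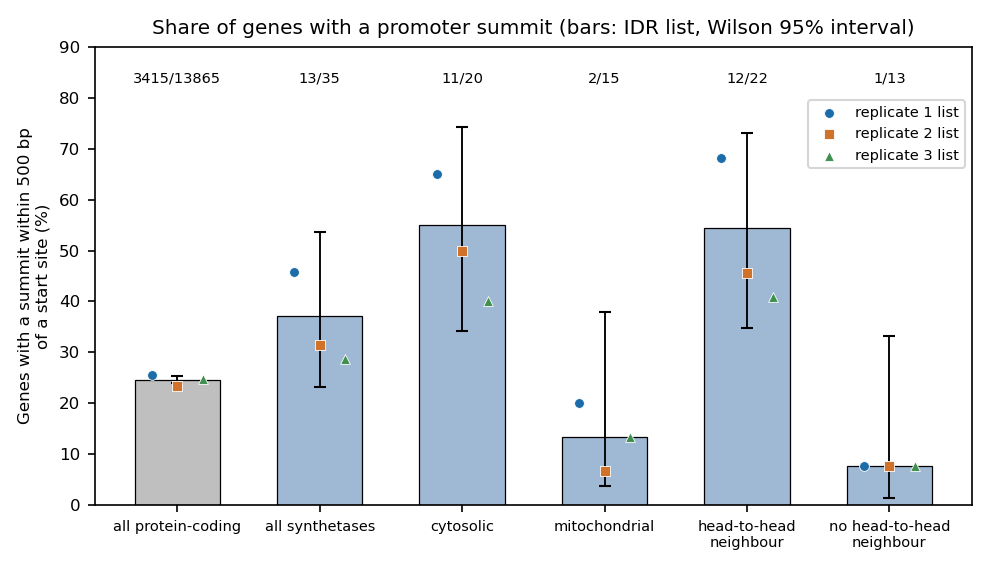
Share of genes (y axis, percent) with a summit within 500 bp of a start site for all protein-coding genes, for the synthetase genes and for their subsets (x axis). Bars are the IDR list with Wilson 95% intervals, points are the 3 replicate lists of the same length, and numbers on top are genes with a summit over all genes. The 3 points of the cytosolic genes (40% to 65%) lie above those of the mitochondrial genes (6.67% to 20%).

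SerRS, which charges serine tRNA, had the strongest promoter peak of the set. The gene lies at 2L 3035493 to 3037403 on the minus strand (dm6), with the summit at 3037379. Its promoter summit had a signal value of 474 in replicate 1, 333 in replicate 2 and 396 in replicate 3. The signal is the authors' score whose scale no source states, so replicates are compared by rank. By rank SerRS was at 505, 546 and 573 of the 30000 peaks of each replicate and at 507 of the 7201 IDR peaks. It was high in all 3 replicates, with the narrowest spread of rank among the genes with an IDR summit (worst over best rank 1.13).

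The next cytosolic genes had middle ranks and differed more between replicates. GluProRS, the fused enzyme for glutamic acid and proline, ranked 1749, 1359 and 2643 in replicates 1, 2 and 3, with an IDR signal of 604. AsnRS, the asparagine enzyme, ranked 1199, 1720 and 2718 (IDR signal 590). Both were inside rank 7201 in every replicate and lowest in replicate 3. ArgRS, the arginine enzyme, ranked 2579, 1135 and 2576 (IDR signal 555). AlaRS, the alanine enzyme, ranked 2833, 4032 and 1940 (IDR signal 503). The best replicate of ArgRS was replicate 2 and that of AlaRS replicate 3, so no replicate was best throughout. AspRS, the aspartic acid enzyme, ranked 1846, 932 and 1241 (IDR signal 501). These ranks are not of the same peak. The strongest AspRS summit was at 2R 12876717 in replicate 1 and 12876726 in replicate 3, near the IDR summit at 12876721. In replicate 2 it was at 12880027, near another AspRS start site. GlyRS, the glycine enzyme, ranked 3169, 2563 and 4439 (IDR signal 410). In animals, including flies, GlyRS also serves the mitochondria, and no gene with the symbol GlyRS-m was in the set. The set also held no GlnRS-m, HisRS-m, LysRS-m or ThrRS-m. Which other genes counted as cytosolic also serve the mitochondria was not examined.

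The other 4 cytosolic genes with an IDR summit did not reach rank 7201 in every replicate. ThrRS, the threonine enzyme, ranked 2344 and 1023 in replicates 1 and 2 but 8791 in replicate 3, the widest spread (8.59-fold between worst and best rank), with an IDR signal of 513. MetRS, the methionine enzyme, ranked 4108, 3929 and 9461 (IDR signal 336). Replicate 3 was thus the low replicate for both. The gene alpha-PheRS, for a subunit of the phenylalanine enzyme, ranked 6025 in replicate 1 and 3925 in replicate 3 and had no promoter summit among the 30000 peaks of replicate 2 (IDR signal 271). GlnRS, the glutamine enzyme, ranked 5726, 20563 and 8309 (IDR signal 226), which makes it the weakest gene of the set inside the IDR list. Its rank 6869 lay just inside the list's end at a signal of 218, and the first gene outside was ProRS-m at pooled rank 9024 with a signal of 181.

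The beta subunit of the phenylalanine enzyme had no peak where the alpha subunit had one. No summit lay within 500 bp of beta-PheRS in any of the 5 lists, and the nearest IDR summit was 7309 bp away. LeuRS and TyrRS, for leucine and tyrosine, were also without a promoter summit in all lists. HisRS and CysRS, for histidine and cysteine, had weak pooled summits at ranks 15288 and 16005 of 30000. LysRS had a summit in replicate 3 (rank 10516) and ValRS in replicate 1 (rank 7282), and neither had one in the other lists. TrpRS, the tryptophan enzyme, reached rank 5760 in replicate 1 and was absent from the other lists.

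IleRS, the isoleucine enzyme, was strong in replicates 1 and 2 and absent elsewhere. Its promoter summit ranked 1198 in replicate 1, 191 bp upstream of the start site, and 693 in replicate 2, 187 bp upstream. Both replicates thus placed it within a few bases of the same spot and behind SerRS alone among the synthetase genes. In replicate 3 the nearest summit was 12514 bp away, and in the pooled list, made from all 3 libraries, 11732 bp away. Of 2578 protein-coding genes with a promoter summit inside rank 7201 in replicates 1 and 2, 34 had none in the pooled list. Of the 11 synthetase genes among the 2578, IleRS was the one without a pooled summit. Why the pooled list lacks this peak was not tested.

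Only ArgRS-m and CysRS-m among the mitochondrial genes had an IDR promoter summit. ArgRS-m ranked 3115, 5988 and 3662 in replicates 1, 2 and 3 (IDR signal 352), inside rank 7201 in each. CysRS-m ranked 4419, 9985 and 4360 (IDR signal 317), with replicate 2 as the low replicate. ProRS-m and TrpRS-m had weaker pooled summits, at ranks 9024 and 13270. AlaRS-m had a summit in replicates 1 and 3 alone (ranks 5626 and 7731), as had SerRS-m (15098 and 14888) and TyrRS-m (24244 and 18044). The summits of SerRS-m lay at the edge of the window, 500 bp and 463 bp upstream. AspRS-m had one in replicates 1 and 2 (ranks 12262 and 7308). No list had a promoter summit at AsnRS-m, GluRS-m, IleRS-m, LeuRS-m, MetRS-m, PheRS-m or ValRS-m. The nearest IDR summit just outside the window belonged to LeuRS-m, 844 bp from its start, while the farthest strongest summit inside it was that of AspRS at 283 bp.

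**Figure D2:**
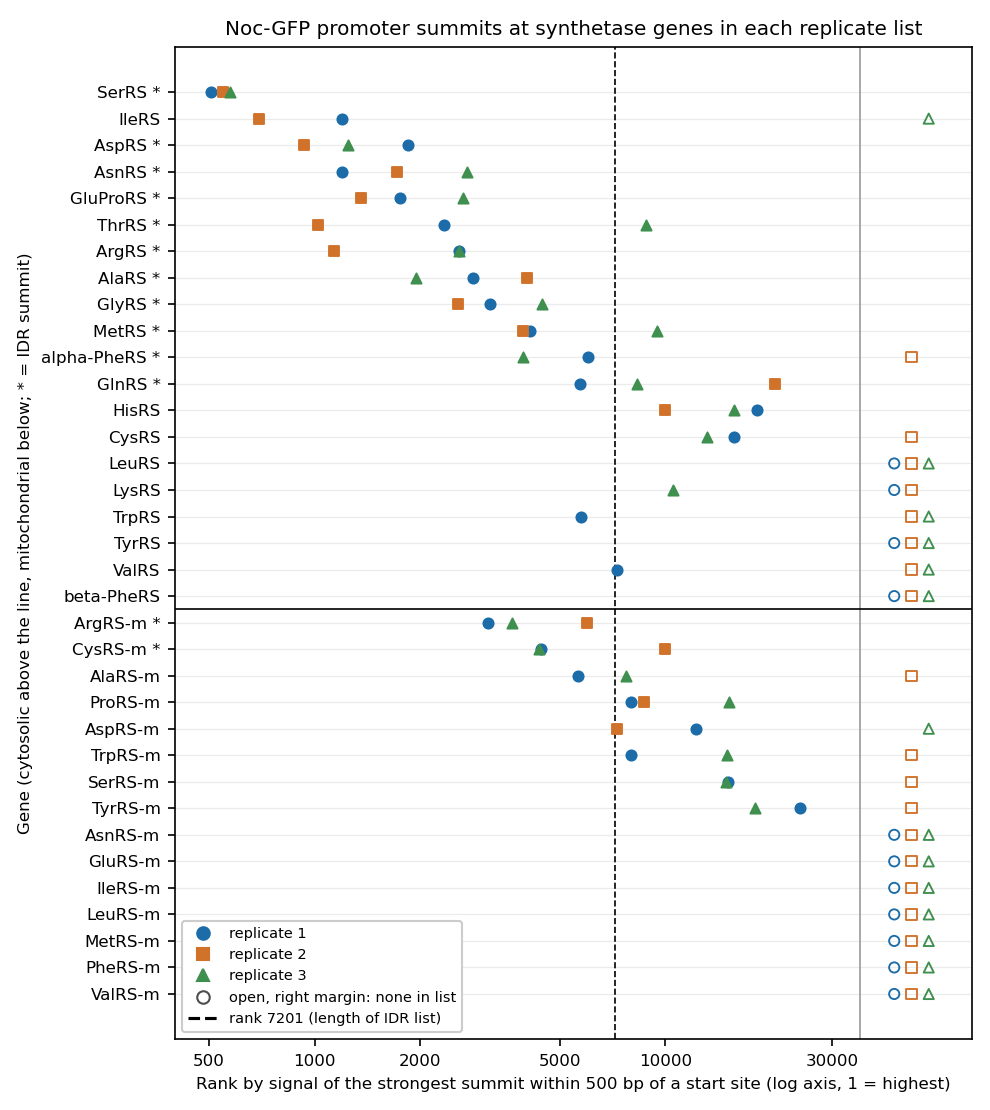
Rank of the strongest promoter summit of each of the 35 synthetase genes (y axis) in the 3 replicate lists of 30000 peaks (x axis, log scale, best rank at left), with open symbols in the right margin where a list had none. Stars mark genes with an IDR summit and the dashed line rank 7201, and SerRS stands at the left with its 3 replicates close together while IleRS has 2 good ranks and no peak in replicate 3.

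Over the whole set, 8 genes had a promoter summit inside rank 7201 in all 3 replicates (22.9%, 12.1% to 39%), against 16.3% of all protein-coding genes. They were SerRS, GluProRS, AsnRS, ArgRS, AlaRS, AspRS, GlyRS and ArgRS-m, of which ArgRS-m is the mitochondrial one. A summit at any start site of the gene counted, and the strongest AspRS summit of replicate 2 lay at another start site. In the full pooled list 17 of 35 genes had a promoter summit (48.6%), near the 45.7% of all protein-coding genes, with 13 of 20 cytosolic and 4 of 15 mitochondrial genes. In the full replicate lists 14 of the 35 had one in all 3 replicates (40%, 25.6% to 56.4%), against 34.4% of all protein-coding genes. A summit in at least 1 of the 5 lists was present at 25 of the 35 (71.4%), against 58% of all protein-coding genes. The 10 genes without one were 3 of the 20 cytosolic (15%) and 7 of the 15 mitochondrial genes (46.7%), where 42% of all protein-coding genes had none. By class, 7 of the 10 cytosolic class II genes had an IDR summit and 3 of the 9 class I genes, with GluProRS, which has a part of each class, besides them. The Wilson intervals of these shares overlapped (39.7% to 89.2% and 12.1% to 64.6%), beside 24.6% of all protein-coding genes. Of the 8 genes whose products belong to the multi-synthetase complex in mammals, 5 had an IDR summit (GluProRS, ArgRS, AspRS, MetRS and GlnRS) and IleRS, LeuRS and LysRS did not. Outside it the count was 6 of 12 cytosolic genes. The intervals of both shares overlapped (30.6% to 86.3% and 25.4% to 74.6%), and the background of 24.6% is not matched for the arrangement of neighbouring genes. Classes and complex were assigned from general knowledge with earlier results of these data known.

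Almost all synthetase genes with a summit shared it with a gene transcribed the other way. A head-to-head neighbour, meaning a protein-coding gene on the opposite strand whose start lies upstream at most 500 bp away, was present at 22 of the 35 synthetase genes (62.9%), against 27.4% of all protein-coding genes. Among these 22, 12 had an IDR summit (54.5%, 34.7% to 73.1%), where 41.3% of all protein-coding genes with such a neighbour had one. Among the other 13 synthetase genes AlaRS alone had one (7.69%, 1.37% to 33.3%), where the background for genes without a head-to-head neighbour was 18.3%. Both backgrounds lie inside these intervals. The shortened replicate lists gave 15, 10 and 9 of the 22, and 1 of the 13 in each. In the full replicate lists it was 17, 13 and 16 of the 22, and 7, 3 and 5 of the 13. The pooled list gave 13 of the 22 (59.1%) and 4 of the 13 (30.8%). The shares of all protein-coding genes with and without such a neighbour were not computed in these lists.

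Head-to-head neighbours were more frequent among the cytosolic genes, 15 of 20, than among the mitochondrial ones, 7 of 15, so that arrangement moves with the contrast of both sets. Within the genes that have such a neighbour, 10 of 15 cytosolic (66.7%, 41.7% to 84.8%) and 2 of 7 mitochondrial genes (28.6%, 8.22% to 64.1%) had an IDR summit, beside the background of 41.3%. Within those that have none, beside the background of 18.3%, 1 of 5 cytosolic (20%, 3.62% to 62.4%) and 0 of 8 mitochondrial genes did, and 0 of 8 allows a share of up to 37.5% by the limit of 3 counts. Each stratum holds few genes, and the intervals of both sets overlap where a neighbour is present. Without a neighbour the order rests on 1 gene, AlaRS, so it cannot be judged there. What part the neighbour has in the difference was not tested.

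At most of these genes the summit lay between the start sites. For 12 of the 13 genes the strongest IDR summit was also within 500 bp of the start of another protein-coding gene. On either strand, this held for 46.1% of all 3415 protein-coding genes with an IDR promoter summit. For 10 of the 12 the summit lay upstream of both starts, and the share of all genes with this arrangement was not computed. The ArgRS summit at X 15844313 was 168 bp upstream of ArgRS and 163 bp upstream of CG8578, close to the middle. The MetRS summit lay 122 bp upstream of MetRS and 123 bp upstream of CG15084, and that of GlnRS 55 bp upstream of GlnRS and 68 bp upstream of RIOK2, a kinase gene of ribosome maturation. A summit in such a place cannot be given to one gene of the pair by these data. For GluProRS it was 141 bp upstream, and 119 bp upstream of AP-1sigma, for a clathrin adaptor subunit. For CysRS-m it was 89 bp upstream, and 79 bp upstream of O-fut1, for the fucosyltransferase that modifies Notch.

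The remaining neighbours were farther from the summit than the synthetase gene, apart from AspRS. They were DCTN6-p27 at AsnRS (266 bp against 103 bp), a dynactin subunit gene, Patsas at ThrRS (326 bp against 140 bp), CG17816 at ArgRS-m (238 bp against 74 bp) and CG2129 at alpha-PheRS (140 bp against 97 bp). At GlyRS, 184 bp from the summit, both Plp, for a centrosome protein (234 bp), and sstn (239 bp) start on the other side. SerRS and CG17260 start 8 bp apart, and the summit was 24 bp downstream of SerRS and 32 bp upstream of CG17260. The strongest AspRS summit was 283 bp upstream of AspRS and 111 bp downstream of the nearest start of Lfg. AspRS had 2 further IDR summits at another of its 3 start sites, shared with Nmda1, with signals of 496 and 242, the latter in an interval that overlaps the former. GluProRS and AsnRS had 2 IDR summits each, also in overlapping intervals, so the 17 distinct summits at the 13 genes are not 17 separate peaks.

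**Figure D3:**
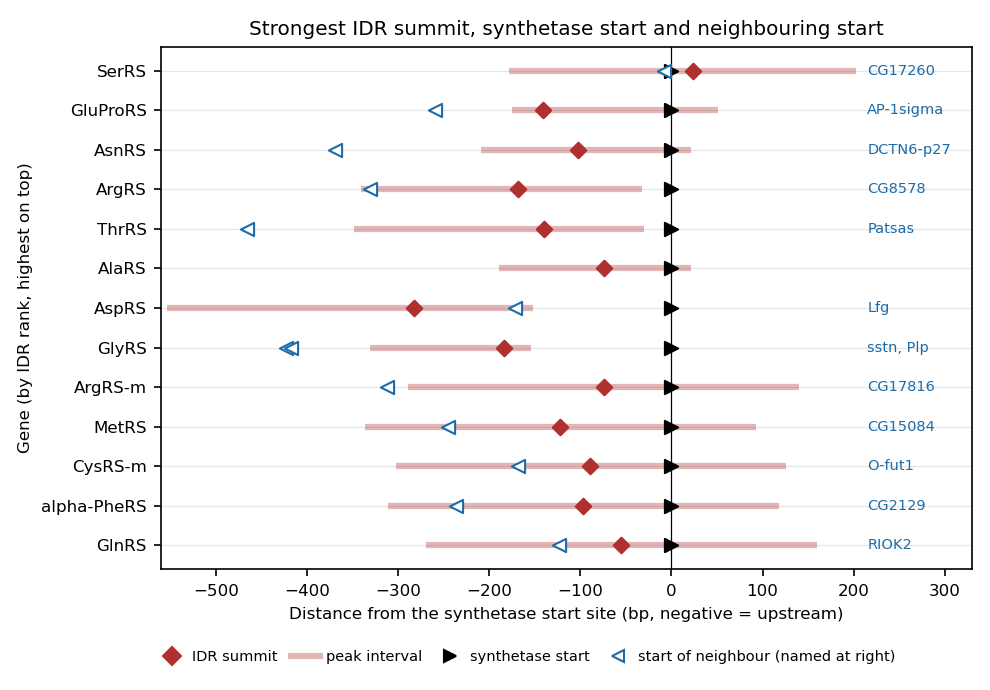
Strongest IDR summit (diamond) and its peak interval (bar) at each of the 13 synthetase genes (y axis, by IDR rank), drawn on the distance from the synthetase start site (x axis, bp, negative upstream). White arrowheads are the starts of the neighbours named at right that lie nearest to the summit, and in 10 genes the diamond lies between both starts.

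Several synthetase genes had a head-to-head neighbour and no IDR summit. LeuRS with CG17593 (216 bp between the starts) and TyrRS with CG33158 (295 bp) had none in any list. TrpRS with Vps16A (115 bp), LysRS with Hecw (62 bp) and IleRS with Hem (470 bp) had summits in 1 or 2 replicates as given above. Among the mitochondrial genes, AsnRS-m with ste24a (53 bp) and LeuRS-m with Dhc64C (166 bp) had none in any list. AlaRS-m with Fitm (35 bp) and TyrRS-m with CG3589 (55 bp) had summits in replicates 1 and 3, and ProRS-m with Snup (238 bp) had one in all 3 full replicate lists and the pooled list. A close head-to-head start thus also occurred without a listed summit.

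The position of the summits was like that at other genes. The strongest IDR summit lay upstream of the synthetase start in 12 of 13 genes, with SerRS as the exception, and the median was 103 bp upstream (range 283 bp upstream to 24 bp downstream). For all protein-coding genes with an IDR promoter summit the median was 122 bp upstream, and 73.4% of the summits lay upstream. Over the replicate lists the median distance of the synthetase genes was -115 bp ± 26.9 (SD, n = 3). Inside the genes nothing was found: none of the 35 held an IDR summit over 500 bp away from every start site, where 10.1% of all protein-coding genes did, and 0 of 35 allows a share of up to 8.57% by the limit of 3 counts. The median length of the synthetase genes was 2727 bp and that of all protein-coding genes 2156 bp. A median does not show how many genes are long, and the 10.1% was not matched for gene length.

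The summit windows were rich in A and T, but the order against other genes was not the same in every replicate. In the windows of 50 bases to either side of the strongest summit the median share of G and C was 24.8% over the 13 genes (15.8% at CysRS-m to 40.6% at AspRS), against 33.7% over all protein-coding genes with an IDR promoter summit. Sequence 250 bp to either side had a median of 43.1% for both. In the replicates' own lists the medians were 28.7%, 27.7% and 37.6% for synthetase genes and 34.7%, 30.7% and 36.6% for all genes, so the order turned in replicate 3. Over the 3 replicate lists the medians were 31.3% ± 5.45 against 34% ± 3.01 (SD, n = 3). The genes behind them changed from list to list, and the difference from other genes was not tested.

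Searched on both strands, the ATF4 composite element TGATGNAA, the DREF element TATCGATA, the E-box CACGTG and core promoter motif 1, GGTCACACT, occurred in 0 of the 13 summit windows. Over all genes with an IDR promoter summit they occurred in 1.32%, 1.84%, 0.908% and 0.878% of the windows, shares so low that a count of 0 in 13 windows carries little weight. The TATA word TATAAA was in 7 of 13 windows against 22% of all, a word made of A and T alone, beside the lower share of G and C given above. The GATA word was in 2 windows (17.8% of all) and TAATTA in 2 (11.6% of all). In the promoters of all 35 genes, from 250 bases before to 50 after the gene's start, TGATGNAA was found at CysRS and beta-PheRS, which have no IDR summit (4.08% of all protein-coding promoters). TATCGATA was found at AlaRS, ArgRS, IleRS, TrpRS and PheRS-m (9.36% of all), and GGTCACACT at GlnRS, beta-PheRS, AsnRS-m, AspRS-m and ProRS-m (6.05% of all). CACGTG was found at GlnRS and LeuRS-m (4.22% of all). TATAAA was in 19 of the 35 promoters (45.8% of all), the GATA word in 15 (36.1%) and TAATTA in 6 (20.5%). A word in a window is a description and no proof of a site.

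Genes that work with the synthetases were near the background. Of 26 genes of the pathway, 7 had an IDR promoter summit (26.9%, beside 24.6% of all protein-coding genes). The scaffold genes AIMP1, AIMP2 and AIMP3 of the multi-synthetase complex had none, while Slimp, a relative of mitochondrial SerRS, had one (signal 261, replicate ranks 4216, 6465 and 5902). GatA, of the amidase that makes glutamine on mitochondrial tRNA, ranked 1514, 2509 and 1227 (IDR signal 617), and its partners GatB and GatC had no IDR summit. In the list for the response to uncharged tRNA, which also holds other genes around eIF2alpha such as PEK, 3 of 8 genes had one. They were AsnS, for asparagine synthetase, with replicate ranks 370, 498 and 275 (IDR signal 1411, 469 bp upstream, near the edge of the window), Thor, for the 4E-BP that restrains translation (1659, 22158 and 1293, IDR signal 425), and crc (4888, 2743 and 4745, IDR signal 240). AsnS was high in all 3 replicates and Thor low in replicate 2.

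The other genes of that list had no IDR summit. PEK, eIF2alpha, PPP1R15 and trbl had summits in the pooled list at ranks 9303, 7986, 8443 and 7992, beyond rank 7201, and in 2 or 3 of the replicate lists, with trbl as high as rank 3576 in replicate 3. Gcn2, the sensor itself, had none in any list. Of the factors that deliver charged tRNA, eEF1alpha1 had an IDR summit (signal 364) and eEF1alpha2, mEFTu1 and mEFTu2 had not. Of 7 genes of tRNA processing and modification, RNaseZ, which trims the 3′ end of tRNA, had one (signal 514), and Nsun2, Mt2, Elp3, La, Rpp30 and RtcB had not.

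Ribosomal protein genes, which also come as a cytosolic and a mitochondrial set, had higher shares in both. An IDR promoter summit was present at 68 of 92 cytosolic (73.9%, 64.1% to 81.8%) and 30 of 73 mitochondrial ribosomal protein genes (41.1%, 30.5% to 52.6%). The share of all protein-coding genes was 24.6%. The intervals overlap with those of the cytosolic and mitochondrial synthetase genes, and the differences were not tested.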

How the data were processed

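ChIP-seq peak lists of 3 libraries were analysed, made from DNA sonicated to 200 to 800 bp (per the labels). The deposited text notes derive each replicate list from that library plus a control, and the pooled list likewise from the 3 libraries together. The IDR list was derived from these 4, and all are on dm6. No source used here names the peak caller, its settings or the aligner, and the control itself was not analysed here.

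The signal value is a score that the authors deposited, and it was used for ranks within a list. Summit offsets are as deposited by the authors. IDR and pooled signals of a shared summit are the same number, and so are the ranks at the synthetase genes with an IDR summit. For these genes the IDR and pooled lists are thus not separate evidence. The deposited −log10 q value was not used for any result. Peak lists hold no read totals, so depth is unknown.

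Summits (peak start plus offset) were linked to every gene with a TSS within 500 bp (Ensembl release 115, arms 2L, 2R, 3L, 3R and X, transposons left out). Intervals are Wilson 95% intervals (scipy 1.17.1, Python 3.11.15, pandas 2.3.3, numpy 2.4.6, matplotlib 3.10.9). Linking was tested on simulated data with planted summits. Members, lists and words were chosen with earlier results of these data known. Every member is named. Of 27 pathway genes 26 were matched, JhI-1 as RNaseZ. Alternatives covered the TSS distance, peak lists, left-out replicates, nearest start and the symbol rule. Sequences were shown for genes off arm 2R whose window holds no annotated exon.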

Additional observations from a re-analysis of the deposited data

How the results depend on the processing

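Of the 13 genes with an IDR promoter summit, 13 remained at a TSS distance of 250 bp (20.5% of all protein-coding genes), and LeuRS-m was added at 1000 bp (28.7%). Among the 3600 IDR peaks of highest signal 8 genes remained, all cytosolic, and 0 mitochondrial ones, with 14.9% of all protein-coding genes. Leaving out 1 replicate kept IDR summits matched within 100 bp in both others, and gave 5 to 10 genes, 4 to 9 cytosolic and 1 to 2 mitochondrial, with 14.8% to 18.7% of all protein-coding genes. These sets hold fewer peaks by construction. In the list of replicate 2, 1 mitochondrial gene had a summit, and among all pooled peaks 4 did. With each summit given to the nearest TSS only, 9 genes remained (25.7%, against 19.4% of all protein-coding genes), 8 cytosolic and 1 mitochondrial, without ArgRS, AspRS, CysRS-m and GluProRS. With symbols that match from the first letter the count was 11. That rule takes alpha-PheRS, beta-PheRS and GluProRS out of the set itself, and of these alpha-PheRS and GluProRS have an IDR summit. The count is thus out of fewer genes and shows no loss of summits at the genes kept, and its share was not computed. In all peaks of each replicate list, 14 genes had a promoter summit in all 3 replicates in place of 8 (40%, against 34.4% of all protein-coding genes). The median distance was -146 bp in the list of replicate 2, and ran from -131 to -74 bp when a replicate was left out. With a gap of up to 1000 bp, chosen after the data were seen, 24 genes had a head-to-head neighbour in place of 22. The cytosolic share was above the mitochondrial share under each alternative of TSS distance, peak list, left-out replicate and nearest start. These alternatives draw on the same peaks and are not independent. Under most of them the Wilson intervals of both shares overlapped, as without replicate 1 (8.07% to 41.6% against 1.19% to 29.8%). No paired analysis was possible because the samples form 1 group.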
